A study of Drosophila melanogaster with 23 samples.

Results

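CG12896 and Prx6c are neighbouring Drosophila genes for peroxiredoxins, and their transcript levels were followed in S2R+ cells that were moved from 25 °C to 14 °C. CG12896 was read by probe A_09_P006111 and Prx6c by A_09_P006101, which are 2 of the 32162 probes for genes on the array. A further probe assigned to Prx6c, A_09_P128045, stayed near background in all groups and showed no such decrease. A_09_P006111 and A_09_P006101 were chosen by their values in these same arrays, with the lowest changes of all named genes at 72 h against 25 °C. Every change of these 2 probes against 25 °C is therefore given below as a description and without a test. S2R+ is a continuous cell line with hemocyte-like features that was derived from Drosophila embryos. The 23 single-colour arrays carried RNA from S2R+ cells, for which the labels name no treatment other than temperature: 3 arrays at 0 h, taken at 25 °C when the shift began, 3 arrays named t12_25, taken after 12 h more at 25 °C, and 5 arrays from 4 h, 3 from 12 h, 5 from 24 h and 4 from 72 h spent at 14 °C. The study's methods call the samples of a group biological replicates, all of the same cell line. The quantification software marked 6 arrays as outside its quality range, 1 from 4 h, 2 from 12 h and 3 from 72 h.

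Peroxiredoxins are abundant enzymes that reduce hydrogen peroxide and organic peroxides through a reactive cysteine, and they protect cells from oxidative damage while also shaping peroxide signalling. The Prx6 class, to which Prx6c belongs, keeps only the peroxide-attacking cysteine and is usually recycled by glutathione-linked or other thiol donors. CG12896 is a close relative of Prx6c whose own function is not well described. In the order of the reference gene table, Prx6b, a further close relative, lies directly beside CG12896, and 3 genes separate CG12896 from Prx6c. Since the files give no probe sequences, it was not tested how far the probes of these relatives also bind each other's transcripts.

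Transcript levels of both genes were high and steady at 25 °C and during the first hours at 14 °C, and most of the decrease came after 12 h. All levels are log2 values of the normalized intensity, on which a step of 1 is a change of 2-fold. CG12896 was at 12.01, 11.64 and 11.89 on the 0 h arrays and at 11.86, 12.63 and 11.93 on the t12_25 arrays. After 4 h at 14 °C its level was 12.14, 11.99, 11.86, 11.43 and 12.16, within the range of the 25 °C arrays except for the fourth array, which was lower. After 12 h it was 11.53, 11.52 and 11.15, and these 3 arrays lay below every 25 °C array but overlapped with the 4 h arrays. After 24 h CG12896 had dropped to 9.80, 9.56, 10.00, 10.05 and 10.02, and after 72 h to 7.66, 8.48, 8.46 and 7.48. The arrays of the 24 h and 72 h groups overlapped neither with each other nor with those of any earlier group. For 72 h against 25 °C this is tied to how the members were chosen. How many of all probes were separate between these groups was not counted, so the separation is a description of the members only.

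Prx6c, the gene with the established Prx6 name, followed the same course. Its level was 11.95, 11.24 and 11.96 at 0 h and 11.85, 12.27 and 12.13 in the t12_25 arrays. At 4 h it was 12.03, 11.78, 11.70, 11.09 and 12.29, and at 12 h 11.46, 11.54 and 11.14, so that the 12 h arrays overlapped with those of 0 h and of 4 h. The values at 24 h were 9.64, 9.38, 9.98, 10.20 and 9.98, and those at 72 h were 7.36, 8.55, 8.41 and 7.62. Again the 24 h and 72 h arrays were separate from each other and from every earlier group. The gaps were 0.83 between the 24 h and 72 h arrays and 0.89 between the 4 h and 24 h arrays, with the same limits as for CG12896.

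**Figure D1:**
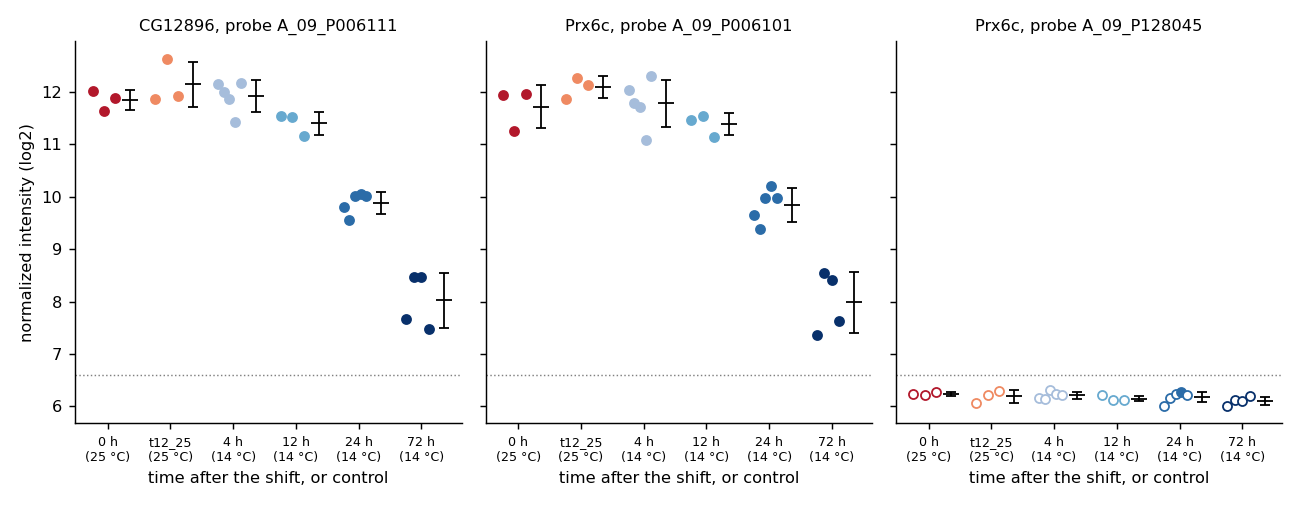
Normalized intensity (log2) of the CG12896 probe, the Prx6c probe and a further probe for the Prx6c transcript on each of the 23 arrays by group; filled points were well above background, open points were not, bars give the mean and SD, and the dotted line is the filter value of 6.6. CG12896 and Prx6c stay between 11.09 and 12.63 through 12 h at 14 °C, drop to between 9.38 and 10.20 at 24 h and to between 7.36 and 8.55 at 72 h, while the further Prx6c probe stays near 6.2 throughout.

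Ordered by the group means, CG12896 was highest in t12_25 (12.14 ± 0.42, SD, n = 3), followed by 4 h (11.92 ± 0.30, n = 5), 0 h (11.85 ± 0.19, n = 3), 12 h (11.40 ± 0.22, n = 3), 24 h (9.89 ± 0.21, n = 5) and 72 h (8.02 ± 0.52, n = 4). The order was the same for Prx6c, with 12.08 ± 0.21, 11.78 ± 0.45, 11.72 ± 0.41, 11.38 ± 0.21, 9.84 ± 0.32 and 7.99 ± 0.58. The 3 highest groups overlapped with each other for both genes, and the steps between them were no larger than the spread between arrays.

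The decrease was also plain in the intensities before normalization. With the local background subtracted, the CG12896 spot read 3151 to 5531.5 units on the 25 °C arrays, 2280 to 6383.5 at 4 h and 2342.5 to 2897.5 at 12 h. It read 586 to 1007.5 units at 24 h and 167.5 to 332.5 at 72 h. Prx6c ranged from 2395.5 to 6361 at 25 °C, from 515 to 1037 at 24 h and from 140.5 to 350 at 72 h. Both spots remained well above background on all 23 arrays, so that the levels at 72 h were measured values and not limits.

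Relative to the pooled 0 h and t12_25 arrays, the change in CG12896 on the log2 scale was -0.08 after 4 h and -0.60 after 12 h, then -2.11 after 24 h and -3.97 after 72 h. For Prx6c the changes at these times were -0.12, -0.52, -2.06 and -3.91. These values chose the members and are given without a test: CG12896 transcripts at 72 h were at 6.37% of the 25 °C level and Prx6c transcripts at 6.63%. At 24 h, 53.1% of the log2 decrease seen at 72 h had been reached for CG12896 and 52.7% for Prx6c, whereas at 12 h it was 15.0% and 13.3%. The next lowest probe at 72 h was that of CG34232, with -3.24, and then the unnamed probe A_09_P100320, with -3.15. From 24 h to 72 h the difference was -1.86 for CG12896 and -1.85 for Prx6c. Against t12_25 alone, the 12 h arrays differed by -0.74 for CG12896 and -0.70 for Prx6c. Because RNA was taken from whole cultures, less transcript per cell and fewer expressing cells cannot be told apart.

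The difference between 24 h and 4 h at 14 °C uses none of the arrays whose contrast chose the members. Its SE and p-value rest on a spread estimated over all 23 arrays, including those. The contrast was also chosen with earlier results of these data known. Both genes fell between these times, CG12896 from 11.92 to 9.89 and Prx6c from 11.78 to 9.84. In the limma fit over 15508 probes, the difference was -2.03 (SE 0.20, adjusted p = 8.56e-07), a 4.09-fold lower level, for CG12896. For Prx6c it was -1.94 (SE 0.24, adjusted p = 1.19e-05), or 3.85-fold lower. Both were called, that is, had an adjusted p under 0.05 with a change of at least 2-fold, and they were the 2 probes with the lowest differences of all those tested, or ranks 3 and 4 from the lowest with the processed signal scaled to the 75th percentile. In the same comparison 93 probes, 0.6% of those tested, were called lower and 52 higher. With median scaling the called probes were 119 lower and 32 higher, and with the processed signal scaled to the 75th percentile they were 212 lower and 192 higher.

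**Figure D2:**
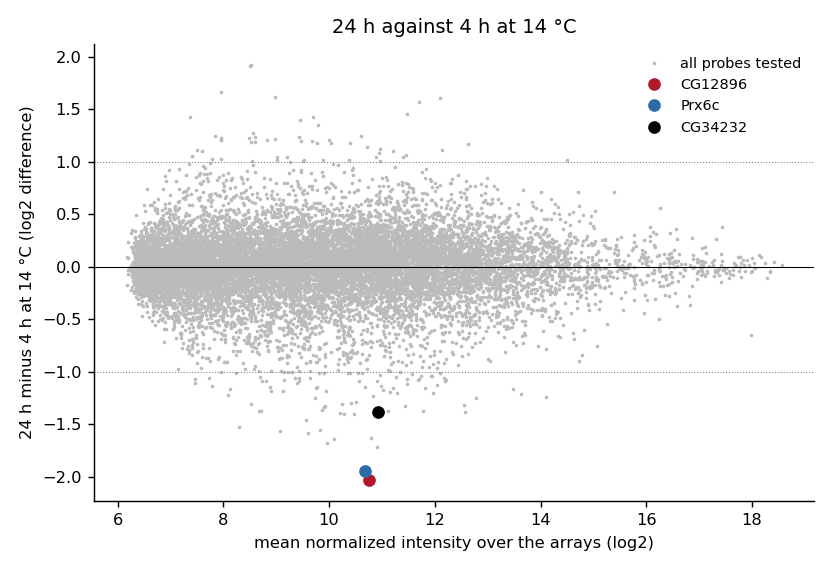
Difference between 24 h and 4 h at 14 °C (log2) against the mean normalized intensity over all arrays (log2) for the 15508 probes tested, with CG12896, Prx6c and CG34232 marked and dotted lines at a change of 2-fold. CG12896 (-2.03) and Prx6c (-1.94) lie below all other probes at this scaling, and CG34232 is at -1.39.

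Arrays of the 4 h and 24 h groups were placed together on 3 of the 7 slides, so the difference could also be read within a slide. For CG12896 it was -2.14 on slide 2, -2.10 on slide 4 and -1.91 on slide 7, and for Prx6c -2.31, -2.06 and -1.64. On each of these slides both genes were lower at 24 h by more than 3-fold. Without the 4 h array outside the quality range, and the 5 of other groups, the differences were -1.97 for CG12896 (adjusted p = 2.11e-05, limma) and -1.82 for Prx6c (adjusted p = 0.000123).

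Both genes also fell between 12 h and 24 h at 14 °C, CG12896 from 11.40 to 9.89 and Prx6c from 11.38 to 9.84. CG12896 fell by 1.51 (SE 0.23, adjusted p = 0.00391, limma) and Prx6c fell by 1.54 (SE 0.28, adjusted p = 0.0131). They were 2 of the 4 probes called lower in this comparison, which are 0.0258% of those tested. These calls were less firm than those against 4 h: with slide as a block the adjusted p was 0.0681 for CG12896 and 0.0782 for Prx6c, and the Prx6c call was also lost when any of the 3 arrays of the 12 h group was left out. Without the 6 arrays outside the quality range, which leaves 1 array at 12 h, the differences were -1.65 and -1.62 and neither was called (adjusted p = 0.39 and 0.912, limma). Only slide 2 held arrays of both times, with differences of -1.497 for CG12896 and -1.56 for Prx6c. The 12 h array on this slide was outside the quality range.

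From 4 h to 12 h the difference was -0.52 (SE 0.23, adjusted p = 0.265, limma) for CG12896 and -0.40 (SE 0.28, adjusted p = 0.511) for Prx6c. Neither gene passed the test, in a comparison in which 24 probes, or 0.155%, were called. On slide 2, which held an array of each time, both outside the quality range, the differences were -0.65 and -0.75. Without the arrays outside the quality range, which leaves 1 array at 12 h, they were -0.32 and -0.19. A decrease between 4 h and 12 h was therefore neither shown nor excluded by these arrays.

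At 25 °C, the levels before and after 12 h of further growth overlapped for both genes. The t12_25 arrays differed from the 0 h arrays by 0.29 (SE 0.26) for CG12896 and 0.37 (SE 0.31) for Prx6c, with an adjusted p of 1 in limma for each. No probe (0%) was called in this comparison, while 388 had an unadjusted p under 0.05. The highest CG12896 value of all, 12.63, came from a single t12_25 array on slide 5. Within slides 1 and 3, which held arrays of both groups, the CG12896 difference was 0.04 and -0.15.

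The probes for CG12896 and Prx6c followed each other closely. Across the 23 arrays their levels had a Pearson correlation of 0.994, most of which reflects the shared difference between groups. Deviations from the group means, which leave the time course out, still correlated at 0.891 over the arrays. Such deviations keep any effect of slide or scan date that many probes share, and the value for other pairs of probes was not computed. They also keep any binding of the 2 probes to each other's transcripts, which was not tested. Within an array CG12896 minus Prx6c ranged from -0.20 to 0.40, with a mean of 0.09 ± 0.24 (SD, n = 6) at 25 °C, 0.14 ± 0.17 (n = 5) at 4 h, 0.05 ± 0.13 (n = 5) at 24 h and 0.04 ± 0.19 (n = 4) at 72 h. The change in this difference was -0.09 from 4 h to 24 h (exact permutation test, two-sided, p = 0.373, adjusted p = 0.671 over the 2 comparisons computed). Between 4 h and 24 h, a difference between the decreases of the 2 probes was not detectable against a spread of this size. From 25 °C to 72 h it was -0.06, which is given as a description, since both probes were chosen on that change.

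**Figure D3:**
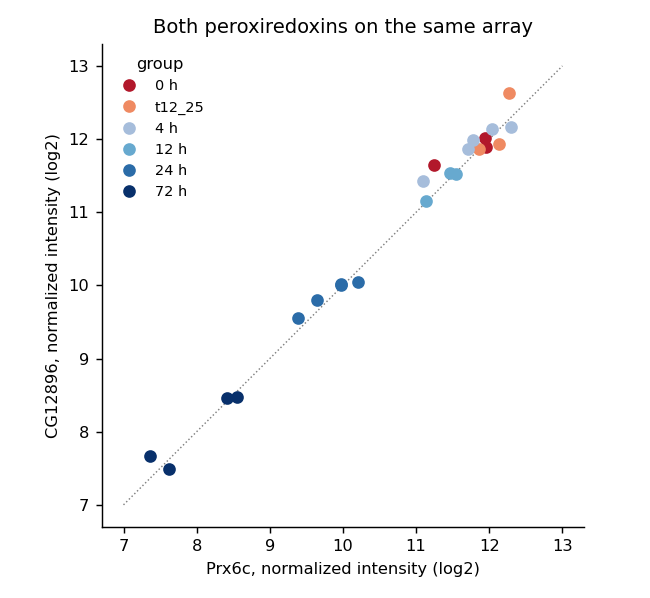
CG12896 against Prx6c on the same array, both as normalized intensity (log2), for the 23 arrays coloured by group, with the dotted line marking equal values. The points follow the line from above 11 in the 0 h, t12_25, 4 h and 12 h arrays down to between 7.36 and 8.55 at 72 h.

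The 4 arrays taken at 72 h formed 2 pairs that followed the scan date. They equally followed the slides, 5 and 6 for the lower pair and 1 and 2 for the higher, so slide and date cannot be told apart here. The arrays of replicates 1 and 4, from the first scan date, gave 7.66 and 7.48 for CG12896 and 7.36 and 7.62 for Prx6c. Replicates 2 and 3, from the second date, gave 8.48 and 8.46 and 8.55 and 8.41. With scan date as a block in the fit, 72 h minus 25 °C was -4.01 for CG12896 and -3.98 for Prx6c. Within slides, 72 h minus 25 °C was -3.45, -5.15 and -3.98 for CG12896 on slides 1, 5 and 6 and -3.63, -4.65 and -3.88 for Prx6c. The decrease was thus more than 8-fold on each. All of these values come from the arrays whose contrast chose the members, so they describe the spread of that change and are no separate support for it.

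A further probe for the same Prx6c transcript, A_09_P128045, did not follow this course. It was well above background on only 1 of the 23 arrays, and its level stayed between 6.01 and 6.31 in all groups, below the filter of 6.6. Its background-subtracted intensity was 8.5 to 28 units at 25 °C and 24 to 42 units at 72 h. The 2 probes assigned to Prx6c thus disagree, and the Prx6c values given here are those of A_09_P006101 alone.

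Of 8 peroxiredoxin genes listed, a probe was found only for CG12896 and Prx6c, and the other 6, Prx2, Prx3, Prx4, Prx5, Prx6a and Prx6b, were not analysed here. Of 63 further genes of antioxidant and redox systems, 20 could be paired with 28 probes, and 17 of these probes passed the filter on low values. At 4 h and 12 h none of the 17 was called against 25 °C, where 0.78% and 2.7% of all probes were. At 24 h, 2 of the 17 were called, both lower, where 3.42% of all probes were called. At 72 h 1 was called, higher, where 4.42% were. Without regard to size, the number of the 17 with an adjusted p under 0.05 was 0, 2, 4 and 7 at the successive times, and the share of all probes was 12.3%, 24.6%, 32.3% and 35.1%. The median change of the 17 probes was -0.20 at 24 h and 0.07 at 72 h, and that of all probes was 0.00 at both times. The lowest of the 17 probes was at -1.42 at 24 h and at -0.89 at 72 h, and both peroxiredoxins lay below these values, an order that follows from how they were chosen.

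The probes called against the pooled 25 °C arrays were all from glutathione S-transferases, a family that held 11 of the 17 probes. Both probes of GstZ1, the maleylacetoacetate isomerase of tyrosine breakdown, were lower at 24 h. A_09_P073016 changed by -1.42 (SE 0.13, adjusted p = 4.14e-08, limma) from 11.41 ± 0.25 (SD, n = 6) at 25 °C, and A_09_P164700 by -1.39 (SE 0.21, adjusted p = 2.44e-05). At 72 h their changes were -0.77 (adjusted p = 0.000184) and -0.89 (adjusted p = 0.00364), under the 2-fold limit. GstE2, an epsilon class transferase that conjugates glutathione to reactive compounds, moved the other way. Its level was 8.06 ± 0.10 (n = 6) at 25 °C, 8.73 ± 0.07 (n = 5) at 24 h and 9.35 ± 0.08 (n = 4) at 72 h, a rise of 1.29 at 72 h (SE 0.07, adjusted p = 1.38e-11).

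No probe of another enzyme that acts on peroxides was called against the pooled 25 °C arrays. The 2 probes of Cat, the catalase that breaks down hydrogen peroxide, changed at 72 h by -0.76 (SE 0.15, adjusted p = 0.000504, limma) and -0.76 (SE 0.20, adjusted p = 0.00406), under the 2-fold limit. Against t12_25 alone, where 4.71% of all probes were called, both Cat probes were called at 72 h, with -1.01 (SE 0.16, adjusted p = 4.86e-05, limma) and -1.01 (SE 0.21, adjusted p = 0.00115). Gtpx, a glutathione peroxidase homologue, was at 0.27 (SE 0.16, adjusted p = 0.188) and Ccs, the copper chaperone of superoxide dismutase, at -0.23 (SE 0.17, adjusted p = 0.342). The thioredoxin-like gene Txl was at 0.07 (SE 0.10, adjusted p = 0.637) at 72 h. Probes for the NADPH oxidase Nox and the extracellular superoxide dismutase Sod3 did not pass the filter.

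**Figure D4:**
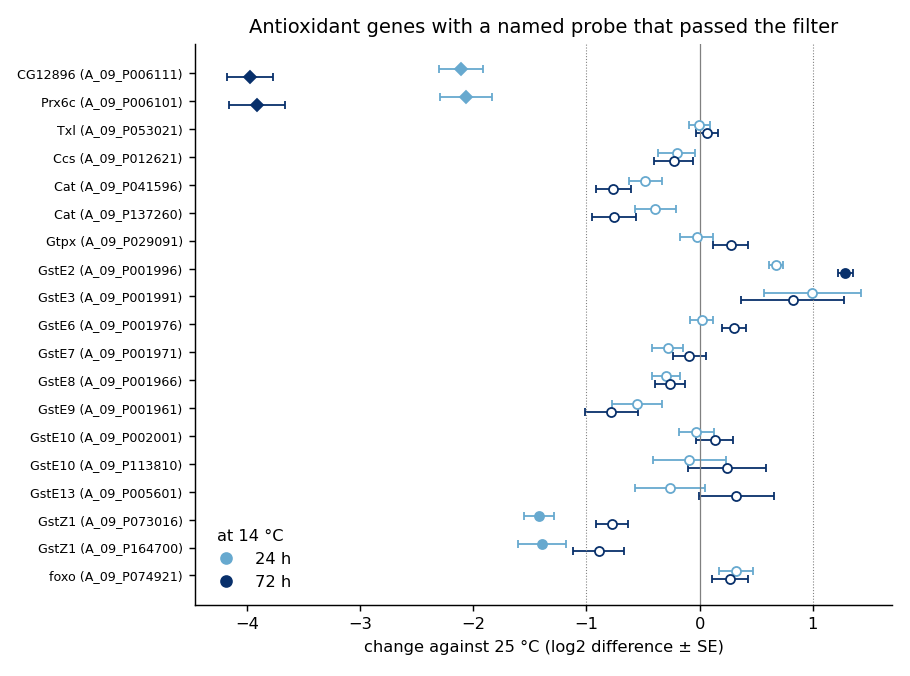
Change against 25 °C (log2 difference with its SE) at 24 h and 72 h for CG12896 and Prx6c (diamonds, not tested) and the 17 probes of other antioxidant genes that passed the filter (circles, filled where called), with dotted lines at a change of 2-fold. Of the circles, only GstZ1 at 24 h (-1.42 and -1.39) and GstE2 at 72 h (1.29) are called against the pooled 25 °C arrays.

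None of the probes for the genes beside the peroxiredoxins was called at 72 h against the pooled 25 °C arrays, where 4.42% of all probes were. CG11825, the gene next to Prx6c in the reference table, changed by -0.77 at 24 h (SE 0.17, adjusted p = 0.00142, limma) and -0.77 at 72 h (SE 0.18, adjusted p = 0.0022). RanBPM, the Ran-binding scaffold protein next to CG12896, changed by -0.96 at 72 h (SE 0.12, adjusted p = 1.88e-06) with A_09_P104000, but its other probe, A_09_P006116, gave -0.10 (SE 0.39, adjusted p = 0.867). Against t12_25 alone, where 4.71% of all probes were called, A_09_P104000 was called at 72 h, with -1.09 (SE 0.14, adjusted p = 4.22e-06, limma). CG12895 was at -0.44 at 72 h against the pooled 25 °C arrays (SE 0.45, adjusted p = 0.499, limma). Its level split by slide, with 9.52 to 10.29 on slides 5, 6 and 7 and 7.72 to 8.74 on the others. A_09_P006116 of RanBPM split likewise, with 7.28 to 8.20 and 6.19 to 6.71. Slides 1, 5 and 6 held arrays of both 72 h and 25 °C, and on each of them both probes were lower at 72 h. The change against the pooled arrays and the SE of both probes include this split, whose cause was not tested. At 25 °C these probes were at 7.74 (CG11825), 8.86 and 7.10 (RanBPM) and 9.12 (CG12895), and the background-level probe A_09_P128045 was at 6.22. A fall as large as that of the peroxiredoxins could therefore not have been read from them. With a normexp offset of 0, where 1226 of all probes were called at 72 h, CG11825 and A_09_P104000 were each at -1.14 and called. The other genes within 3 places of a member could not be paired with a probe.

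**Figure D5:**
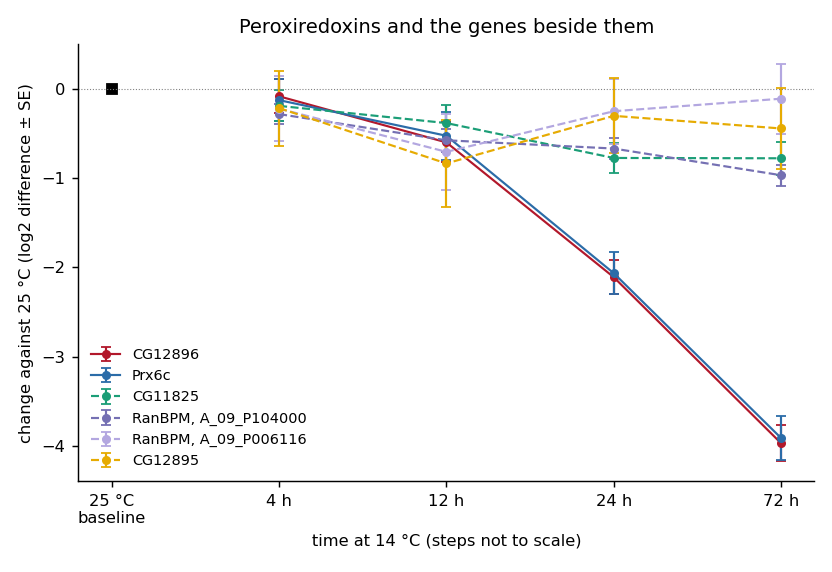
Change against the pooled 25 °C arrays (log2 difference with its SE, baseline at 0) at 4, 12, 24 and 72 h at 14 °C for CG12896 and Prx6c (solid lines) and for the probes of CG11825, RanBPM and CG12895 (dashed lines). The peroxiredoxins reach -3.97 and -3.91 at 72 h, and the 4 probes of the genes beside them lie between -0.96 and -0.10. These 4 probes started at lower levels, from which a fall as large could not have been read.

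Over the 23 arrays, the level most like the mean of the 2 members was that of CG34232 (Pearson r = 0.976). It was followed by Zw10, a kinetochore protein of the spindle checkpoint (r = 0.960), Spc25, a subunit of the kinetochore complex that holds microtubules (r = 0.956), and ND-AGGG, a subunit of mitochondrial complex I (r = 0.953). The gene htk had r = 0.944, and the other 5 of the 10 most alike probes, which have no name here, had r of 0.944 to 0.952. These correlations describe a shared course over the same arrays and slides and say nothing of a shared function. The sizes differed: at 72 h the change was -3.24 for CG34232 and -3.15 for the unnamed A_09_P100320, but -0.83 for Zw10, -1.16 for Spc25, -1.66 for ND-AGGG and -0.91 for htk. CG34232 was at -0.33 at 4 h (SE 0.14, adjusted p = 0.145, limma), which was not called, and reached -1.71 at 24 h.

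Between 46.2% and 56.4% of probes were well above background on an array. Of 8 hemocyte markers only srp and ush, transcription factors of blood cell development, could be paired with a probe, and at 25 °C they were at 11.24 ± 0.25 (SD, n = 6) and 11.57 ± 0.16. The probe of fz, the Wnt receptor whose presence sets S2R+ cells apart from other S2 lines, was near background, at 6.23 ± 0.12. The probes of vas and twi, markers of germ line and mesoderm, were at 6.002 to 6.142. The change of srp at 72 h was -0.24 (adjusted p = 0.149, limma), that of ush was 0.38 (adjusted p = 0.0079), and their part in the results above was not tested.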

How the data were processed

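S2R+ transcripts were measured on 23 single-colour arrays. Per the file headers, spots were quantified by the authors in Agilent Feature Extraction (version 10.7), and the intensities as deposited carry no normalization between arrays. Quality, outlier and background flags are other columns that the authors deposited. The authors' deposited log2 values, which their methods describe as normexp-corrected, quantile-normalized and adjusted with surrogate variables, were used as an alternative only.

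Spot median intensities were corrected with normexp (offset 50) in limma 3.58.1 (R 4.3.3), quantile-normalized over gene spots and log2-transformed. Before this, 23 local backgrounds above 3 times the array median were set to that median. Of 43602 gene spots per array, flagged outliers (1627 spots over all arrays) were left out, and the median over spots of a probe was taken. No spot was saturated. Probes above 6.6 on at least 3 arrays were kept, as in the study's methods: 15508 of 32162.

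Groups were taken from the sample titles. A model with 6 group means, or with the 25 °C arrays pooled, was fitted with lmFit and eBayes over all arrays. P-values were Benjamini-Hochberg adjusted over all probes, and probes were called at an adjusted p under 0.05 and a change of at least 2-fold. The fit was tested on simulated data. The number of arrays limits the precision. The 2 arrays most alike within a group (r = 0.9989) shared 2.6% of their spot intensities, and no array was dropped. The members, the gene lists and the contrasts were chosen with earlier results of these data known.

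Names came from the study's probe annotation and from RefSeq (Release 6 gene table), and 4356 probes could be paired with a gene. The text names the members, other peroxiredoxins, antioxidant probes called at any time, genes up to 3 places from a member and the 10 most alike probes. Antioxidant genes that were not called, the markers and the probe A_09_P128045 were named outside this rule, with their values seen. Alternatives covered background, scaling, filters, slide, scan, the replicate block, baselines, weights and each array left out.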

Additional observations from a re-analysis of the deposited data

Results flagged for a closer look

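The level of each peroxiredoxin differed between times at 14 °C. From 4 h to 24 h the difference was -2.03 for CG12896 and -1.94 for Prx6c, and from 12 h to 24 h it was -1.51 and -1.54, each by the limma test of the difference itself. Of 36 sets of values examined for an array far from the others, where chance gives about 1 in 20, 2 had such an array, and neither was of a peroxiredoxin. GstE2 was at 7.93 on the array of 4 h replicate 2, against 8.10 to 8.16 on the other 4 h arrays. GstZ1 (A_09_P073016) was at 9.63 on the array of 24 h replicate 2, against 10.02 to 10.17 on the others. Both arrays were on slide 7.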

How the results depend on the processing

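The fall from 4 h to 24 h kept its direction and its call for both peroxiredoxins in all 38 alternative fits, with -2.15 to -1.95 for CG12896 and -2.12 to -1.82 for Prx6c when an array was left out. For the fall from 12 h to 24 h, the call was lost for CG12896 and Prx6c with slide as a block, while the differences were -1.55 and -1.45. Without arrays outside the quality range the differences were -1.65 and -1.62, in a fit with 1 array at 12 h, assumed to vary like the other groups. For Prx6c the call was also lost with median scaling (-1.53) and with only the arrays compared (-1.54). Its difference ranged from -1.66 to -1.43 over the arrays left out. The cause was not tested. Without arrays outside the quality range, CG12896 was at -4.51 at 72 h, from 1 array. Median scaling, which shifted the median of all probes by -0.24 at 72 h, gave CG12896 -0.91 at 12 h and -2.41 at 24 h and Prx6c -0.84 at 12 h. Slide as a block gave CG12896 -2.32 at 24 h and Prx6c -0.79 at 12 h.

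Within slides, Prx6c differed by -0.75 between 4 h and 12 h, from slide 2 alone, where both arrays were outside the quality range. The t12_25 minus 0 h difference turned to -0.0875 (CG12896) and -0.0278 (Prx6c) with array weights (not fully converged), and was -0.0537 and 0.0389 within slides. CG12896 minus Prx6c, 72 h against 25 °C, ranged from -0.147 to 0.00266 over the arrays left out. The antioxidant probes called at 72 h numbered 2 with the processed signal, with scan date as a block or with 0 h as the baseline, 3 (GstE2 and both Cat probes) with t12_25 as the baseline and 6 with median scaling, and 1 to 2 with an array left out (2 without t12_25 replicate 2 or 72 h replicate 1 or 2). With median scaling 1 was called at 12 h. The lesser RanBPM probe (A_09_P006116) turned to 0.0387 at 72 h with scan date as a block and 0.85 without arrays outside the quality range, where CG12895 was at 0.46, and ranged from -0.42 to 0.17 over the arrays left out. Its other probe and CG11825 were called in 11 and 3 settings.

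No label pairs arrays by replicate number, and deviations of same-numbered arrays correlated from -0.88 to 0.90 (median 0.57, against -0.23 for other numbers and 0.65 within slides). With the replicate block the 24 h minus 4 h values were -2.03 and -1.94, those for 24 h minus 12 h -1.48 and -1.57, and no peroxiredoxin call changed, but probes called from 12 h to 24 h went from 4 to 10. Over all alternatives, the probes called ranged from 101 to 404 (145) for 24 h minus 4 h, 0 to 121 (24) for 12 h minus 4 h, 0 to 34 (4) for 24 h minus 12 h, 0 to 7 (0) for t12_25 minus 0 h, and 68 to 595 (121), 269 to 1436 (419), 367 to 1410 (530) and 490 to 2021 (686) at 4, 12, 24 and 72 h against 25 °C. Of the 10 most alike probes, 4 stayed among the 10 with median scaling and 6 with the processed signal or the authors' values. Surrogate variables as covariates were not run.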
